A study of Mus musculus with 59 samples.

Results

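Gene expression in the infarcted left ventricle 1 week after myocardial infarction was compared with that of sham-operated mice across all genes. The comparison used 6 of the 59 arrays of the series, chosen by their labels alone: 3 infarct arrays, of which the third bears the title number 670 and is called array 670 here, and 3 sham upper arrays. Each array measured total RNA from 1 piece of mouse left ventricle on Affymetrix oligonucleotide arrays. Each infarct piece came from an infarcted mouse, from the wall below the left anterior descending coronary artery (LAD) and down to the apex. The sham upper pieces lay above that artery in sham-operated mice, so the groups differ in position as well as in injury. A sham lower piece matches the infarct by position, and 1 such array exists at 1 week, with the title number of the third sham upper array. Remote pieces, taken above the infarct and carrying the same title numbers as the infarct arrays, are used below for 1 direct comparison, as are infarct and sham upper arrays of 48 h and 8 weeks, with 3 arrays in each group. The labels give no strain, sex or age, do not say how the infarct was made, and do not say that the title number is a mouse, which is how it was read here. If it is not, the p values measure only the spread between pieces of tissue.

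When a coronary artery is blocked, the cardiac muscle it supplies dies and is not replaced by new muscle. Neutrophils and then macrophages enter and clear the debris, and fibroblasts divide, take on contractile features as myofibroblasts and lay down collagen, which becomes a scar. At 1 week a mouse infarct is in the middle of this repair, with granulation tissue where muscle had been.

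Intensities of single arrays are given below in ascending order of title number. Changes are log2 differences of infarct minus sham upper ± SE, after 45.6 was added to each intensity, which shrinks the changes of dim genes. An adjusted p below 0.05 in limma is called passing. As a check of the tissue label, the ventricular myosin light chain gene Myl2 read 10053, 10895 and 2290.3 on the infarct arrays, against 24406, 23148 and 21564 on the sham upper arrays. Infarct array 670 stood apart from the other infarct arrays. It correlated with them across genes at 0.966 and 0.962, against 0.984 between the other two, and with the sham upper arrays at 0.701 to 0.716, against 0.781 to 0.809 for the other infarct arrays. Array 670 was the lowest infarct array for 60.8% of the genes that fell and the highest for 57.9% of those that rose. Values without it are therefore given beside results that it moves. The median intensity per array was 205.8, 209.45 and 211.6 for the infarct arrays, and 156.9, 160.55 and 164.15 for the sham upper arrays. The part of this offset in the results was not tested, but quantile normalization, which removes it, is reported where it changes a direction. The 3′ to 5′ signal ratio of the Gapdh control probe sets, a sign of RNA integrity, was 0.756 to 0.845 in infarct and 0.838 to 0.878 in sham upper tissue. That of actin was 1.166 to 1.256 in infarct and 1.301, 1.329 and 1.764 in sham upper tissue, without overlap, and the part of RNA quality in the results was not tested.

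The infarct differed from sham tissue in most of the genes that could be tested. Of 6670 genes, 2325 (34.9%) had more signal in infarct and 1711 (25.7%) had less, and at least 2-fold differences were found for 1080 and 764 of them. All 3 infarct arrays lay above all 3 sham upper arrays for 2250 of the 2325 genes that rose, and below them for 1649 of the 1711 that fell. Over all 6670 genes they lay above for 2667 and below for 1941. Against the sham lower array alone, which matches the infarct by position but is a single array, 1620 genes were higher and 1331 lower. Without array 670 there were 2125 higher and 1597 lower genes, of which 2104 and 1572 were among those called with it. The median change of all genes was 0.11. Under quantile normalization it was -0.07, and the split of calls turned from 2325 higher and 1711 lower, 57.6% higher, to 1903 higher and 2097 lower, 47.6% higher. Of the 1711 lower genes, 10 were called higher that way: Dcn, Fth1, Rac1, Snx3, Tpt1 and the ribosomal protein genes Rpl19, Rpl41, Rplp0, Rps18 and Rps24. Where a gene has several probe sets the brightest is used, and those that disagree with it are given with the gene. For Aqp1, Capg, Ckm, Fth1, Hand1, Igfbp4, Il4ra, Mfap5, Myl4, Npr3, Pgd, Rpl19, Rps24, Smyd1 and Tm9sf3 the brightest probe set passed and a dimmer one did not.

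The 16 largest rises were led by Saa3, Lox and Lgals3. Lox, the enzyme that crosslinks collagen and elastin, read 5329, 4752 and 6885 on the infarct arrays, against 46.3, 63.5 and 77.9 on the sham upper arrays. It rose by 5.71 ± 0.40 (adjusted p = 2.0e-15), although a second, dimmer probe set, at 140 in infarct and 70.9 in sham, gave 0.67 and did not pass. Saa3, an acute phase protein made by macrophages and other cells in inflamed tissue, read 2889.9, 5625 and 4608 in infarct and 11.6, 76.3 and 21.1 in sham. Lgals3, which encodes galectin 3 of macrophages, read 4895, 4299.7 and 4706 in infarct and 14.4, 98.2 and 60.9 in sham. None of these groups overlapped. The remaining rises of this set were Arg1 (5.52), Tnc (5.40), Adam8 (5.31), Mmp12 (5.20), Col11a1 (4.82), Ccl8 (4.53), Clec4d (4.50), Sfrp2 (4.48), Postn (4.41), Col8a1 (4.37), Plac8 (4.36), Timp1 (4.30) and Mfap4 (4.20).

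The 14 largest falls began with Ces1d, Hrc and Ckm. Ces1d, a carboxylesterase that breaks down lipid, read 16.9, 6.4 and 6.4 on the infarct arrays, against 1773, 1531 and 1472 on the sham upper arrays, and fell by 4.88 ± 0.29 (adjusted p = 1.1e-16). Hrc, the histidine-rich calcium-binding protein of the sarcoplasmic reticulum, read 552, 556 and 213 in infarct and 7738, 7960.3 and 8181 in sham. Ckm, the creatine kinase of muscle, read 299, 379 and 18.6 in infarct and 3568, 3131 and 3291 in sham, and fell by 4.00 ± 0.34, or by 3.16 without array 670. Every one of these arrays lay below its sham counterparts, and for Ckm the intensity on array 670 was far under that of the other infarct arrays. Cox7a1, Car14, Sgca, Efnb3, Slc2a4, Pxmp2, Smyd1, Pygm, Hopx, Eci1 and Ppif each fell by at least 3.51 on the log2 scale. A lower signal in a piece of tissue can mean fewer cells of a type or less RNA per cell, and arrays of whole tissue cannot tell these apart.

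**Figure D1:**
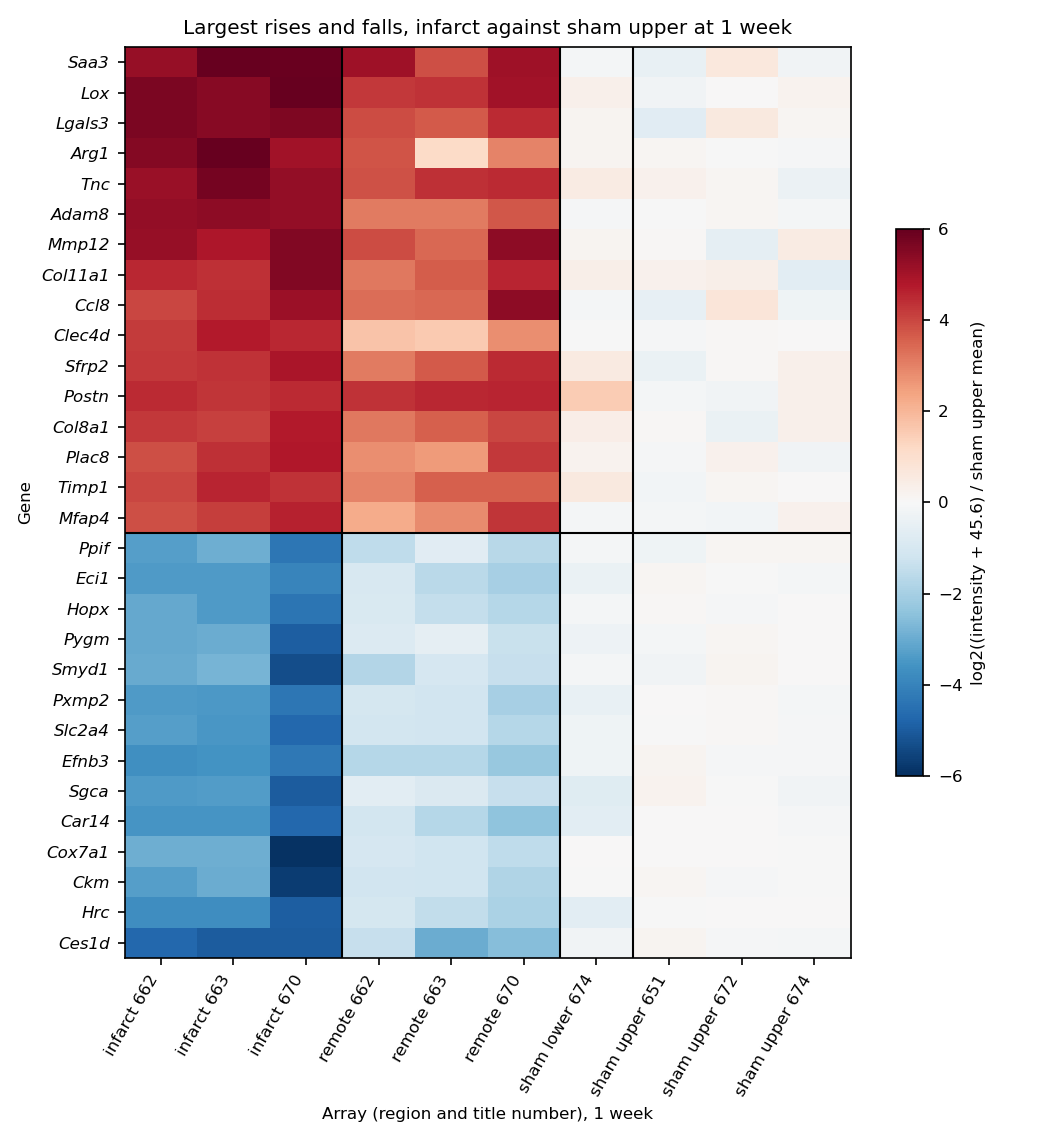
The 16 largest rises and 14 largest falls (rows) on each array of 1 week (columns), coloured by log2((intensity + 45.6) / sham upper mean); the columns run from infarct and remote to sham lower and sham upper. All rises are red on the 3 infarct arrays and near white on the 4 sham arrays. Array 670 is the darkest blue infarct column for most of the falls, as for Ckm at 18.6 against 299 and 379 on the other infarct arrays.

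Collagen genes rose together. Of 7 tested fibrillar collagen genes, which encode the load-bearing fibres of a scar, 6 rose and 0 fell, with a median change of 3.14. The exception was Col2a1 of cartilage (0.08). Col1a1 read 13833, 15394 and 15131 on the infarct arrays, against 1263, 1485 and 2599 on the sham upper arrays, and Col3a1 read 11918, 11865 and 12051 in infarct and 983, 1127 and 2028 in sham. The infarct arrays thus lay close together, while the third sham array was the highest of its group for both. Col1a1 rose by 3.09 ± 0.36 and Col3a1 by 3.14 ± 0.33. Their other probe sets gave 1.68 for Col1a1 and 5.39 and 3.43 for Col3a1, all passing. Col1a2, the partner chain of Col1a1, rose by 3.54 ± 0.32 on its brightest probe set, whereas a dimmer one, at 880.4 in infarct and 1307 in sham, fell by 0.55 (adjusted p = 0.0059). Col5a2 (4.19) and Col11a1, which encode minor fibrillar chains that help set fibre diameter, rose most. Col11a1 read 1886, 1714 and 3867 in infarct and 54.7, 62.5 and 8.5 in sham.

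Among 11 other collagen genes 8 rose and 0 fell. Col8a1, a short-chain collagen of vessel walls, rose by 4.37 ± 0.28, Col14a1 by 3.64 ± 0.27, and Col6a3 and Col6a2 of the beaded filaments by 2.45 and 1.86. The enzymes and chaperones that fold and crosslink collagen rose in 12 of 14 cases and fell in 0, with a median of 1.27. Besides Lox they included Bmp1, the protease that trims procollagen (2.19), Loxl1 (1.81) and Crtap, a partner of prolyl hydroxylation (1.69). Basement membrane genes were divided, with 9 of 16 rising and 4 falling. Sparc, a collagen-binding matrix protein, rose by 2.36 ± 0.22 and the nidogen gene Nid2 by 1.96 ± 0.20, while the laminin chains Lamb3 and Lamb2 fell by 2.51 and 1.49.

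Matricellular proteins, which signal to cells in healing tissue without bearing load, rose in 12 of 15 cases with a median of 2.36. Postn, the periostin gene of activated fibroblasts, read 12303, 10799 and 12636 on the infarct arrays, against 479.9, 439 and 655 on the sham upper arrays. Tnc, which encodes tenascin C of wounds and developing tissue, read 2768, 4095 and 3004 in infarct and 48.2, 38.3 and 14.6 in sham. Both were free of overlap, by more than an order of magnitude. Ccn4 rose by 3.94 ± 0.25, Ccn5 by 3.33 ± 0.36 and Fn1, the fibronectin gene, by 1.85 ± 0.18. The 2 falls were Tnxb, a tenascin of uninjured connective tissue (fell by 1.61), and Vtn, the vitronectin gene (fell by 0.89).

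Genes of proteoglycans and elastic fibres rose in 18 of 25 cases and fell in 3. Mfap4, Ltbp2 and Mfap5, components of elastic microfibrils, rose by 4.20 ± 0.41, 3.80 ± 0.33 and 3.40 ± 0.21, and Fmod, a proteoglycan that binds collagen fibrils, by 3.74 ± 0.67. Dcn, another small proteoglycan, read 11027, 11414 and 12533 in infarct and 14706, 15344 and 13867 in sham and fell by 0.33 ± 0.11, but it was higher by 0.28 under quantile normalization (adjusted p = 0.018). Proteases of the matrix and their inhibitors rose together. Of 21 tested, 16 rose and 0 fell, with a median of 1.75. Adam8, a membrane protease of leukocytes, read 2602, 2808 and 2660.3 on the infarct arrays, against 22.9, 30.4 and 17.5 on the sham upper arrays. Mmp12, the macrophage elastase, read 3025, 2318 and 3835 in infarct and 40.2, 10.9 and 71 in sham, and Timp1, an inhibitor of metalloproteases, read 7981, 11798 and 9985 in infarct and 398, 503 and 470.0 in sham. Mmp9 (4.11 ± 0.46) and Mmp14, a membrane-bound collagenase (2.79 ± 0.21), rose as well. Mmp2 and Spp1 were not analysed here.

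Contractile genes of smooth muscle and myofibroblasts rose in 15 of 22 cases and fell in 1, Smtn, with a median of 1.32. Acta2, the smooth muscle actin that marks myofibroblasts, read 5805, 5992 and 7723 on the infarct arrays, against 1991, 1714 and 2124 on the sham upper arrays. It rose by 1.71 ± 0.26, and array 670 was the highest. Csrp2 (2.90), Cnn1, the calponin gene (2.88), and Tagln (2.71) rose more. By contrast Myh11, the myosin heavy chain of mature smooth muscle, read 450.1, 303 and 467 in infarct and 816, 568 and 574 in sham and did not pass (-0.63, adjusted p = 0.057), and Notch3 and Rgs5, markers of vessel wall cells, did not pass either (0.06 and 0.31), although a dimmer probe set of Rgs5 fell by 0.52 (adjusted p = 0.043). The summed intensity of the 22 genes was 49916 to 60607 in infarct and 19275 to 20399 in sham tissue. Fibroblast markers rose in 14 of 21 cases (11 without array 670) and fell in 2. Their summed intensity was 44918 to 53680 in infarct and 34912 to 36982 in sham tissue, a smaller gap than for the 22 genes above. S100a4 rose by 4.09 ± 0.30, Fstl1 by 3.50 ± 0.24 and the transcription factor Twist2 by 2.01 ± 0.21, while Gsn, the actin-severing protein gelsolin, fell by 1.84 ± 0.16. Pdgfra did not pass on its brightest probe set (0.25) and rose by 0.87 on a dimmer one (adjusted p = 0.0075). Another gene that did not pass was Vim, whose only named probe set was dim at 92.2, 84.6 and 61.3 in infarct and 109.5, 121 and 106 in sham.

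The signalling genes around fibroblasts moved less evenly. Of 33 TGF-beta, activin and BMP genes 17 rose and 3 fell, with a median of 0.51. Fstl1, Inhbb (2.50), Id2 (2.50) and Tgif1 (2.29) rose most. Tgfb1, the ligand that drives matrix synthesis, read 687, 782 and 649 in infarct and 152, 345 and 352 in sham and rose by 1.26 ± 0.32. In the Wnt pathway 10 of 22 genes rose and 0 fell, and the 4 largest rises were secreted proteins that bind Wnts or their receptors. Sfrp2 read 2783, 2947 and 4371 on the infarct arrays, against 69.7, 114 and 139 on the sham upper arrays, without overlap. Dkk3 rose by 3.72 ± 0.51, Frzb by 3.35 ± 0.42 and Sfrp1 by 2.84 ± 0.21. No Wnt ligand of the 3 tested passed, namely Wnt5b (-0.25), Wnt10b (-0.34) and Wnt11 (0.52), and neither did the pathway's feedback gene Axin2 (-0.02). Of 10 insulin-like growth factor genes 3 rose, a share below the 34.9% of all genes, and 0 fell. The 3 were the binding proteins Igfbp3 (2.17), Igfbp7 (1.76) and Igfbp4 (0.81). The growth factor gene Igf1 did not pass on its brightest probe set (0.10), but another, at 1246 in infarct and 117 in sham, rose by 3.01 (adjusted p = 3.0e-09).

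Of 38 macrophage markers on the list 27 were tested, and all 27 rose, with a median of 2.54 (2.57 without array 670). Markers dim in sham tissue, such as Arg1, could enter the test through arrays of infarcted hearts alone. The count therefore depends in part on the filter. Cd68, a glycoprotein of macrophage lysosomes, read 3601, 3574 and 3623 on the infarct arrays, against 234, 266 and 356 on the sham upper arrays, and rose by 3.48 ± 0.26 (adjusted p = 1.2e-14). Arg1, an arginase of macrophages in repair, read 2397, 3376 and 1733 in infarct and 11.6, 7.5 and 5.1 in sham. Ctss, the cathepsin that cuts antigens in endosomes, rose by 3.72 ± 0.31 and Mpeg1, a pore-forming protein of phagocytes, by 3.84 ± 0.34. The infarct arrays agreed closely for Cd68 and differed by nearly 2-fold for Arg1. The summed intensity of the list was 92817 to 101638 in infarct and 17653 to 23346 in sham tissue. Genes of phagocyte integrins, Fc receptors and their signalling rose in 25 of 27 cases and fell in 0. Tyrobp, an adaptor of activating receptors, rose by 3.55 ± 0.38, the Fc receptor gene Fcgr2b by 3.45 ± 0.32, and Ptprc, which encodes CD45 of all leukocytes, by 3.26 ± 0.33. Itgal, an integrin chain of lymphocytes, did not pass (-0.46).

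Lysosomal genes rose in 32 of 46 cases, with 5 falling, with a median of 0.95. Acp5, a phosphatase of macrophages and osteoclasts, rose by 3.20 ± 0.29 and the protease gene Ctsc by 3.15 ± 0.33. The falls were in lipid-handling genes and pump subunits: Smpd1, a sphingomyelinase (fell by 1.77), Npc1, a cholesterol exporter of lysosomes (fell by 1.30), and the proton pump subunits Atp6v1d, Atp6v1e1 and Atp6v0a1 (by 0.39 to 0.69, where Atp6v0a1 did not pass without array 670). Complement genes rose in 11 of 14 cases. C3ar1 and C5ar1, receptors for complement fragments, rose by 3.25 ± 0.22 and 1.78 ± 0.15, and Cfp, which encodes properdin, by 3.12 ± 0.34. C1qb, a chain of the first component, read 3849.9, 3519.9 and 4949 in infarct and 1050.0, 1254 and 1262 in sham. The fall was in Cd59a, which blocks the membrane attack complex (fell by 1.28). Genes of antigen presentation on MHC class II rose in 11 of 15 cases and fell in 0, among them Ifi30 (2.46), H2-Aa (1.88) and Lgmn (2.28). Of the MHC class I list 7 of 14 rose and 2 fell, with a lowest change of -1.41. Of 27 interferon-induced genes 14 rose and 0 fell. The largest rises were Pdia3 (1.77) for class I and Ifi202b (2.38) for interferon.

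Chemokine genes rose in 17 of 26 cases, with 1 falling. Ccl8, which attracts monocytes, read 1583, 2185 and 3597 on the infarct arrays, against 27.4, 125 and 40.9 on the sham upper arrays, with array 670 the highest. Ccr2, the receptor of inflammatory monocytes, rose by 3.44 ± 0.37, Cxcr4 by 3.10 ± 0.19 and Ccl2 by 3.01 ± 0.41. Cxcl12, the ligand of Cxcr4, has no settled direction: it fell by 0.73 on its brightest probe set, as the 1 fall of the list, and rose by 2.68 on another, at 2132 in infarct and 275.9 in sham (adjusted p = 3.2e-11). Interleukin and TNF family genes rose in 20 of 31 cases, with 3 falling. Il1rn, an antagonist of interleukin 1, rose by 2.87 ± 0.41, Il6 by 2.33 ± 0.38 and Il4ra, a receptor chain for interleukins 4 and 13, by 2.32 ± 0.19, while Il15 fell by 2.28. Of 15 neutrophil markers 9 rose, or 12 without array 670. S100a8 read 685, 1226 and 513.9 in infarct and 166, 370.2 and 122 in sham and rose by 1.71 ± 0.46, but its partner S100a9 read 291, 549 and 201 in infarct and 92.5, 292 and 81.9 in sham, overlapped, and did not pass (1.02). The granule genes Mpo (-0.33), Ltf (0.14) and Elane (0.52) did not pass, and Mmp9, the largest rise of the list, is also made by macrophages. The summed intensity of the neutrophil list was 4252 to 5412 in infarct and 936 to 1247 in sham.

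Lymphocyte genes gave a mixed picture. Of 19 B cell genes 11 rose and 1 fell, or 9 and 0 without array 670, which carried the largest part of the antibody signal. Igkv6-23, an immunoglobulin light chain segment, read 608, 252 and 5604 on the infarct arrays, against 87.2, 45.8 and 45.6 on the sham upper arrays, and rose by 3.32 ± 0.88, or by 2.20 without array 670. In remote tissue it read 1244, 104.8 and 3576, and the piece with title number 670 was again the highest. The summed intensity of the B cell list was 7675, 6097 and 15699 on the infarct arrays and 2857 to 3134 in sham. Cd72, a receptor of B cells and macrophages, rose by 2.93 ± 0.29, whereas the B cell markers Pax5 (-0.29), Cd79a (0.39) and Ms4a1 (0.63) did not pass. Of 12 T cell and NK cell markers 2 rose and 2 fell, and the T cell receptor gene Cd3e was dim and did not pass (27.9, 34.9 and 31.3 in infarct and 18, 18.8 and 13.1 in sham). Mast cell markers rose in 3 of 4 cases, led by the protease gene Cma1 (1.98), which read 190.5, 306 and 746 in infarct and 64.2, 39 and 70.4 in sham.

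**Figure D2:**
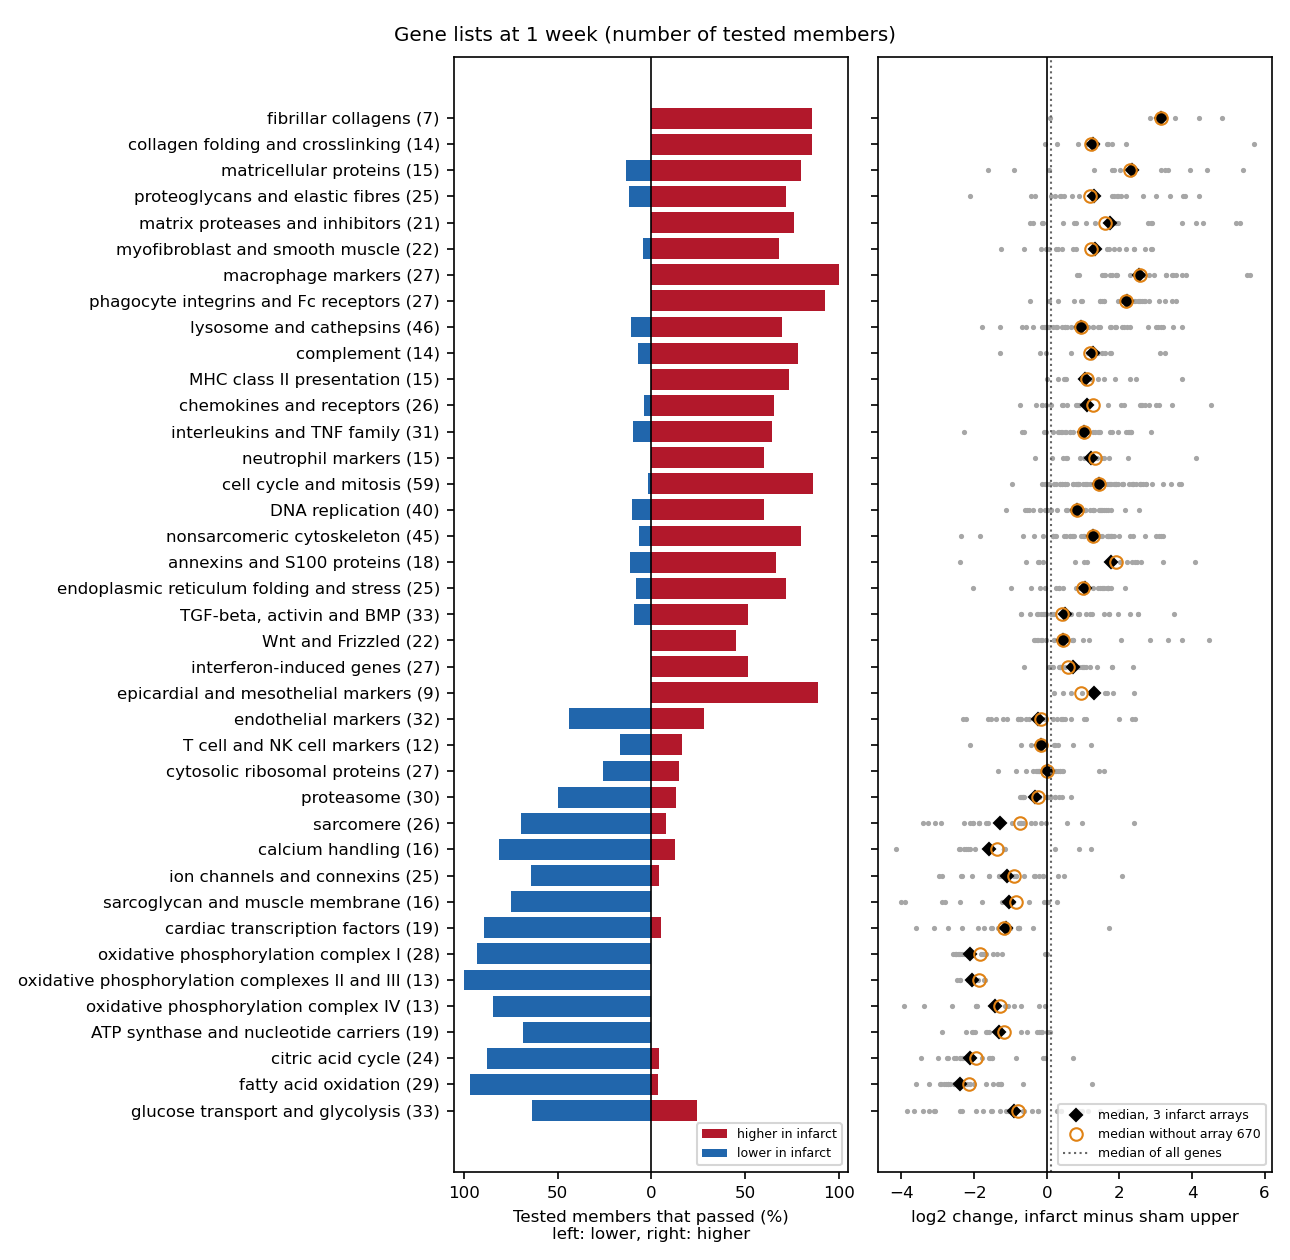
For 39 gene lists, the left panel gives the percentage of tested members that were higher (right, red) or lower (left, blue) in infarct than in sham upper tissue, and the right panel gives the log2 change of each member (grey), the list median (diamond) and the median without array 670 (circle). The medians of fibrillar collagens (3.14) and macrophage markers (2.54) lie far right of the median of all genes (dotted line, 0.11), and those of fatty acid oxidation (-2.38) and complex I (-2.11) far left of it. Diamond and circle stand apart for the sarcomere list, at -1.29 and -0.73.

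Genes of cell division rose. The promoters of 4 such genes are shown because each holds at least 2 CCAAT boxes, bound by the factor NF-Y, and at least 1 copy of TTTGAA, the core of the cell cycle homology region that represses mitotic genes in resting cells. The 200 bases before the start site are given 5′ to 3′ on the gene's strand, from RefSeq on GRCm38.p6, with both motifs, on either strand, in capitals. They lie on the minus strand at chr10:69352913-69353112 (Cdk1), chr9:70421555-70421754 (Ccnb2), chr4:118437344-118437543 (Cdc20) and chr11:99024190-99024389 (Top2a).
Cdk1: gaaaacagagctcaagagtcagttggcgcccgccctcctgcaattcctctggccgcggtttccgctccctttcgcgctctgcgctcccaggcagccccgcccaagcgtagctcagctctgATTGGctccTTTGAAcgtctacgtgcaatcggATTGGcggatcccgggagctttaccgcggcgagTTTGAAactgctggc
Ccnb2: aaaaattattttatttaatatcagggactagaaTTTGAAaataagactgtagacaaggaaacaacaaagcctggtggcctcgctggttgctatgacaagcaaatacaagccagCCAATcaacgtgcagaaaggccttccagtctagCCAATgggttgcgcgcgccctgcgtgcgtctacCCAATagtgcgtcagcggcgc
Cdc20: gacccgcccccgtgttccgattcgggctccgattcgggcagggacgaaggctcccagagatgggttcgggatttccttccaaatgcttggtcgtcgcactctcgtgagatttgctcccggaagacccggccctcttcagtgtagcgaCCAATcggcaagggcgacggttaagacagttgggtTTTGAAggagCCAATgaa
Top2a: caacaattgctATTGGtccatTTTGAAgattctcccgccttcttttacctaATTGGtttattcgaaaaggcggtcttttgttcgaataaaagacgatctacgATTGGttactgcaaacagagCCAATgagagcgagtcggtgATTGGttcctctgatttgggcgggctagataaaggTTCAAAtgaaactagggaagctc
Cdk1, the kinase that starts mitosis, read 521, 932 and 824 on the infarct arrays, against 21.2, 23 and 88.3 on the sham upper arrays. Its partner cyclin gene Ccnb2 read 1332, 2033 and 1714 in infarct and 236, 251 and 385 in sham. Cdc20, which triggers the separation of chromosomes, read 613, 1389.8 and 827 in infarct and 97.5, 208 and 253 in sham, and Top2a, which untangles them, read 185, 378 and 342 in infarct and 7.5, 5 and 54.4 in sham. The groups did not overlap for any of the 4. The second infarct array was the highest of its group for all of them, and the third sham array of its own. The changes were 3.21 ± 0.38, 2.38 ± 0.26, 2.08 ± 0.38 and 2.38 ± 0.32 in that order.

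Of 59 tested genes of the cell cycle and mitosis 51 rose and 1 fell, with a median of 1.45 (1.43 without array 670), against 34.9% of all genes that rose. Cks2, a subunit of the cyclin kinases, rose by 3.69 ± 0.31, Anln, which forms the contractile ring, by 3.63 ± 0.33, and the mitotic kinesin gene Kif20a by 3.42 ± 0.35. Cdkn1c, an inhibitor of these kinases, was the gene that fell (by 0.96). Cyclin D1 and D2 genes, which act at the entry to the cycle, did not pass (Ccnd1 0.19, Ccnd2 0.06). Mki67, a marker of dividing cells, did not pass on its brightest probe set (-0.06), but a second one read 697.9 in infarct and 20.7 in sham and rose by 3.47 (adjusted p = 3.8e-11). Of 40 DNA replication genes 24 rose and 4 fell, with a median of 0.82. Uhrf1, which keeps DNA methylation through replication, rose by 2.54 ± 0.38, Rrm2, which makes deoxynucleotides, by 2.16 ± 0.20, and the licensing factor Cdt1 by 1.78 ± 0.20. Gmnn, which encodes geminin, the inhibitor of Cdt1, fell by 1.11.

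Promoter letters were counted in the 250 bases before the start of the 5345 tested genes with a RefSeq window, on both strands. CCAAT stood in 22 of 39 windows of cell cycle genes that rose (56.4%), against 35.6% of all windows, and TTTGAA in 13 of 39 (33.3%), against 11.3%. Both were found in 11 of the 39 (28.2%), against 4.3%. CCAAT also stood in 14 of 21 windows of replication genes that rose (66.7%). CATTCC, the core of the MCAT element of muscle genes, stood in 6 of 15 windows of sarcomere genes that fell, against 10.7% of all windows. AAGGTCA, a binding site of nuclear receptors, stood in 1 of 23 windows of fatty acid oxidation genes that fell (4.3%), against 3.0%. TATAAA stood in 2 of 15 sarcomere windows (13.3%), against 8.1%. These counts describe letters, may share bases where motifs overlap, and carry no test.

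Genes of the cytoskeleton outside the sarcomere rose in 36 of 45 cases and fell in 3, with a median of 1.28. Capg, which caps actin filaments in macrophages, rose by 3.21 ± 0.26, Marcksl1 by 3.14 ± 0.31, the actin-bundling protein gene Actn1 by 3.08 ± 0.24 and Cotl1 by 3.02 ± 0.35. Actb, the cytoplasmic actin, rose by 0.54 ± 0.22 on its brightest probe set (adjusted p = 0.029, or 0.053 without array 670) and by 2.45 on another. That brightest set read 4624 on the sham lower array, above the infarct arrays at 1735, 1447 and 1557, so the direction turned to -1.53 against this array alone. Annexin and S100 genes, whose products bind calcium at membranes, rose in 12 of 18 cases and fell in 2. Besides Capg, the largest rises were S100a4 (4.09) and Anxa1, a protein that limits inflammation (2.59), while S100a1 of cardiac muscle fell by 2.39 ± 0.16. Integrin and focal adhesion genes rose in 12 of 23 cases, with 4 falling. Itgb2 of leukocytes rose by 3.08 ± 0.35 and the hyaluronan receptor gene Cd44 by 3.01 ± 0.35, and Fhl2, a LIM domain protein of heart muscle, fell by 2.33 ± 0.20. Genes of protein folding in the endoplasmic reticulum rose in 18 of 25 cases and fell in 2. Sec61b, a subunit of the pore through which secreted proteins enter, read 2333, 3039 and 3024 in infarct and 503, 613 and 656 in sham, and Creld2 and Pdia4 rose by 1.70 and 1.70. Hspa5, the main chaperone there, rose by 0.44 ± 0.15, and Herpud1, a part of the degradation machinery, fell by 2.02. Ddit3, a factor of prolonged stress, did not pass (0.26).

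Heart muscle genes fell. Of 26 tested sarcomere genes 18 fell and 2 rose, with a median of -1.29, against 25.7% of all genes that fell. Array 670 deepened these falls: without it the median was -0.73 and 16 fell. Myh6, the main myosin heavy chain of the adult mouse heart, read 8651, 7877 and 580.4 on the infarct arrays, against 27851, 26872 and 25102 on the sham upper arrays. It fell by 2.92 ± 0.41, or by 1.69 without array 670. Myl3, an essential myosin light chain, read 6281, 6959 and 324 in infarct and 28307, 26838 and 25019 in sham and fell by 3.40 ± 0.46, or by 2.02 without that array. Tnni3, the inhibitory troponin of the adult heart, read 6709, 6984 and 692 in infarct and 29350.0, 27766 and 25111 in sham and fell by 3.07 ± 0.36, or by 2.01 without it. In each case the first and the second infarct array lay close together, all 3 infarct arrays lay below the sham upper arrays, and array 670 lay lowest. Ldb3, a protein of the Z line, fell by 3.27 ± 0.26.

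Not every sarcomere gene fell. Myh7, the slow myosin heavy chain that hearts raise under load, read 9256, 10666 and 710.4 in infarct and 18041, 5772 and 5247 in sham, overlapped and did not pass (-0.96). Its value without array 670 was 0.27. The skeletal actin gene Acta1 read 10687, 10541 and 3153 in infarct and 10662, 10897 and 13878 in sham and fell by 0.72 ± 0.23, but only by 0.15 without array 670, where it did not pass. Des, the desmin gene, did not pass (-0.03). The 2 rises were Tpm1 (2.41), a tropomyosin that smooth muscle and fibroblasts also make, and Myl4, the atrial and fetal light chain (0.97).

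**Figure D3:**
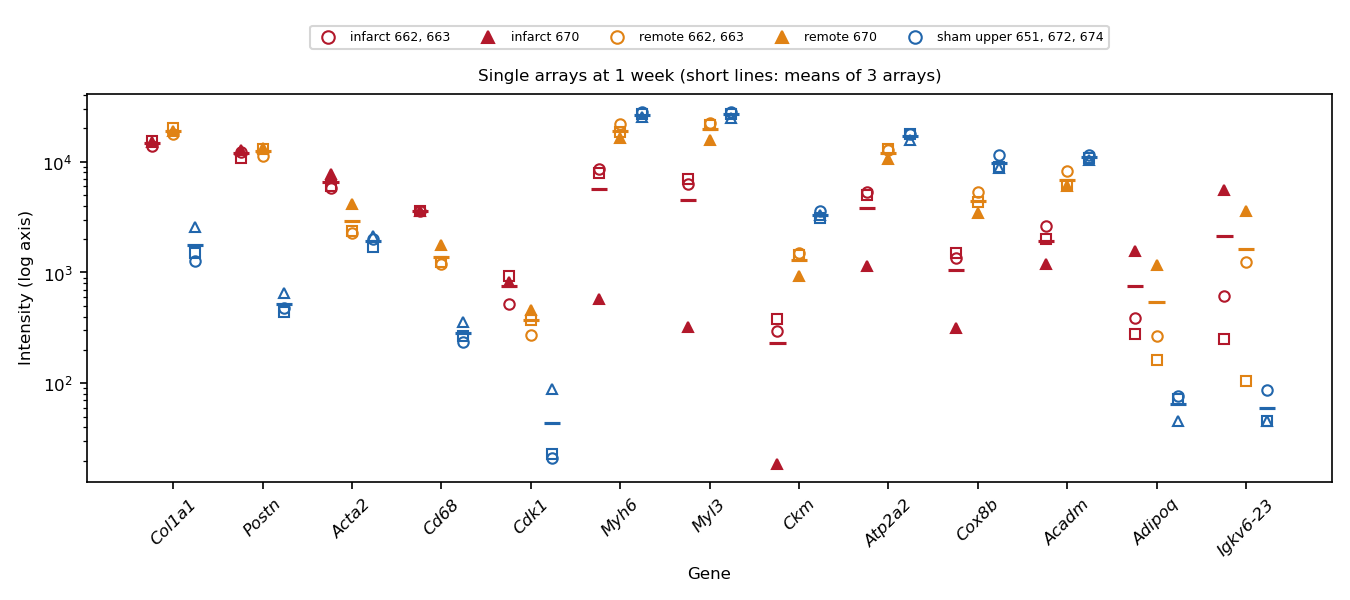
Intensity on a log axis of 13 genes on single arrays of 1 week, with infarct (red) left of remote (orange) and sham upper (blue) for each gene, filled triangles for the pieces with title number 670, open symbols for the others and short lines for means of 3 arrays. Matrix and macrophage genes such as Col1a1 and Cd68 agree among the infarct arrays, while array 670 lies far below them for Myh6 (580 against 8651 and 7877) and above them for Igkv6-23 (5604 against 608 and 252).

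Calcium handling genes fell in 13 of 16 cases and rose in 2, with a median of -1.58. Atp2a2, the pump that refills the sarcoplasmic reticulum, read 5334, 5022 and 1134 on the infarct arrays, against 17593, 17643 and 15719 on the sham upper arrays, and fell by 2.42 ± 0.26 (1.71 without array 670). Ryr2, the channel that releases the calcium, read 2392, 1839 and 762 in infarct and 7869, 6771 and 6749 in sham and fell by 2.21 ± 0.23. Cacnb2, a subunit of the calcium channel of the cell surface, fell by 2.27 ± 0.26. Sri and Fkbp1b, whose products bind the release channel, rose by 0.90 and 1.22. The pump's inhibitor gene Pln was not analysed here. Ion channel and connexin genes fell in 16 of 25 cases and rose in 1. Kcnk3, a background potassium channel, fell by 2.96 ± 0.26, Abcc9 and Kcnj11, the subunits of the ATP-sensitive potassium channel, fell by 2.87 and 2.33, and Gja1, the main connexin of working muscle, by 1.15. The rise was P2rx4, an ATP-gated channel (2.07). Genes of the sarcoglycan complex and muscle membrane fell in 12 of 16 cases and rose in 0. Sgca read 331.6, 344 and 78.4 in infarct and 4561, 3824 and 3389 in sham, and Mb, the myoglobin gene, read 6132, 6429 and 932 in infarct and 24876, 24159 and 21507 in sham and fell by 2.79 ± 0.31, or by 1.90 without array 670. Dmd, the dystrophin gene, did not pass (0.02).

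Transcription factor genes of heart muscle fell in 17 of 19 cases, with a median of -1.13 (-1.17 without array 670). Hopx, an atypical homeodomain protein, read 1229.6, 974 and 470.1 on the infarct arrays, against 11195, 10097 and 10701 on the sham upper arrays. Rxrg, a retinoid receptor, fell by 3.10 ± 0.30, and Ppara and Ppargc1a, which switch on genes of fat burning and mitochondria, fell by 2.72 ± 0.21 and 2.33 ± 0.25. Gata4 fell by 0.80 ± 0.20. Hand1 was the factor that rose (1.71). Natriuretic peptides, the hormones of a stretched heart, parted only with array 670 included. Nppa read 5024, 5403 and 2541 in infarct and 814, 848 and 1111 in sham and rose by 2.11 ± 0.31. Nppb read 10271, 10887 and 3120.5 in infarct and 4082, 6899 and 8567 in sham, overlapped and did not pass (0.18). Without array 670 Nppb did not overlap, rose by 0.75 and passed. Corin, the protease that activates these hormones, fell by 2.05 ± 0.26, and Npr3, which clears them, by 0.93 ± 0.19. Sprr1a, a stress protein of keratinocytes and injured heart muscle, rose by 4.10 ± 0.28, and array 670 was its lowest infarct array at 1437 against 2386 and 2127 on the other infarct arrays.

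Mitochondrial energy genes fell as a body. Of 28 complex I genes 26 fell, of 13 genes of complexes II and III all 13, of 13 complex IV genes 11 and of 19 genes of ATP synthase and nucleotide carriers 13, and 0 genes of these 4 lists rose. The medians were -2.11, -2.07, -1.42 and -1.32, and -1.85, -1.87, -1.29 and -1.17 without array 670. Ndufs1, a core subunit of complex I, read 2059, 1915 and 1143 on the infarct arrays, against 10079, 9549 and 8831 on the sham upper arrays, and fell by 2.49 ± 0.17. Uqcrc1 of complex III fell by 2.38 ± 0.15 and Sdha of complex II by 2.38 ± 0.18. In complex IV the subunits made mainly in heart and skeletal muscle fell most. Cox7a1 read 1321, 1314 and 126 in infarct and 10617, 10444 and 10099 in sham and fell by 3.93 ± 0.37, Cox8b by 3.39 ± 0.27 and Cox6a2 by 2.61 ± 0.26. Without array 670 these were -2.95, -2.74 and -1.90. Of the forms found in most tissues, Cox7a2 fell by 1.92 ± 0.14 and Cox6a1 did not pass (-0.22).

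Of 24 citric acid cycle genes 21 fell and 1 rose, with a median of -2.12. Idh2, the mitochondrial isocitrate dehydrogenase, read 1486, 1606 and 741 in infarct and 15765, 14450.0 and 11759 in sham and fell by 3.47 ± 0.21, whereas its cytosolic relative Idh1 was the rise (0.72). Pdk4, a brake on glucose entry to the cycle, fell by 2.98 ± 0.36. Fatty acid oxidation, the main fuel route of the adult heart, showed the lowest median of the lists, -2.38 (-2.15 without array 670), with 28 of 29 genes falling. Acadm, the medium-chain dehydrogenase, read 2612, 1989 and 1202 on the infarct arrays, against 11602, 10898 and 10327 on the sham upper arrays. Eci1, Ech1 and Etfb fell by 3.60 ± 0.22, 3.25 ± 0.21 and 2.93 ± 0.19. Cpt1a, the form of carnitine palmitoyltransferase that liver and many other tissues use, was the gene that rose, at 2609.5, 1907 and 2951 in infarct and 1024, 891 and 1125 in sham.

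Glucose genes separated by isoform. Of 33 tested, 21 fell and 8 rose. The forms made in muscle fell: Slc2a4, the insulin-responsive glucose transporter, read 402, 347 and 122 on the infarct arrays, against 4369.7, 4587 and 4224 on the sham upper arrays, Pygm, which breaks down glycogen, fell by 3.65 ± 0.28, Pgam2 by 3.42 ± 0.30, Pfkm by 3.23 ± 0.22 and Eno3 by 3.09 ± 0.26. Without array 670 Pygm, Pgam2 and Eno3 stood at -3.03, -2.64 and -2.43. Several forms of other tissues rose. Slc2a1, the basal glucose transporter, read 345, 349 and 234 in infarct and 147, 175 and 86.9 in sham and rose by 0.98 ± 0.27. Pgam1 rose by 1.46 ± 0.18, the neuronal enolase gene Eno2 by 1.14 ± 0.17 and Hk1 by 0.83, while Pgd and Tkt of the pentose phosphate pathway rose by 0.90 and 0.78. Cholesterol genes rose in 8 of 17 cases, with 2 falling, led by the lipid exporters and carriers Abca1 (2.18) and Apoe (1.57).

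Endothelial markers fell in 14 of 32 cases and rose in 9, with a median of -0.24. Kdr, a receptor for vascular endothelial growth factor, read 321, 444 and 394.5 on the infarct arrays, against 764, 1486 and 1123 on the sham upper arrays, and fell by 1.40 ± 0.24. Aqp1, a water channel of capillaries, fell by 2.21 ± 0.29, and Cd36, a fatty acid transporter that muscle cells also make, by 2.31 ± 0.23. Pecam1 read 186, 339.9 and 86.2 in infarct and 278, 406 and 322 in sham, overlapped, and fell by 0.73 ± 0.27 (adjusted p = 0.02), or by 0.35 without array 670, where it did not pass. Vwf and Cdh5 did not pass (-0.06 and 0.17). The rises included adhesion molecules that catch leukocytes, Vcam1 (2.35 ± 0.26), Selp (1.98) and Icam1 (1.07), and Procr, the receptor of protein C (2.42 ± 0.31). The list's summed intensity was 22709 to 23586 in infarct and 25462 to 27767 in sham. Among 29 angiogenic ligands and receptors 11 rose and 9 fell, near the shares of all genes (34.9% and 25.7%). Vegfa and Vegfb fell by 2.46 ± 0.32 and 2.66 ± 0.17, while Vegfc and the midkine family members Mdk and Ptn rose by 1.33, 2.25 and 2.37.

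Genes of the heart's outer layer rose in 8 of 9 cases, with a median of 1.30 (0.94 without array 670). Aldh1a2, which makes retinoic acid, read 251, 300.3 and 249 in infarct and 4.8, 13.5 and 22.8 in sham, and Msln, the mesothelin gene, read 109, 77.6 and 310.7 in infarct and 9.9, 7.6 and 6.3 in sham, with array 670 the highest for Msln. Adipocyte genes were divided, with 7 of 19 falling and 5 rising, or 6 and 2 without array 670. Adipoq, the fat cell hormone adiponectin, read 390.2, 281 and 1571 on the infarct arrays, against 76.7, 71.8 and 45.8 on the sham upper arrays, and rose by 2.49 ± 0.76 (1.87 without array 670, adjusted p = 0.054, which does not pass). Plin4, Lpl and Pnpla2, lipid genes that heart muscle also uses, fell by 2.58, 2.19 and 2.17. The list's summed intensity was lower in infarct, 12108 to 14394, than in sham, 27242 to 32886. Erythroid and platelet markers fell in 4 of 10 cases, with Hba-a1, an alpha globin gene, at 10283, 11942 and 8777 in infarct and 19332, 21263 and 20420.0 in sham. Schwann and nerve markers rose in 5 of 10 cases and fell in 2, led by Egr2 (2.94), which macrophages also express. Skeletal muscle markers fell in 4 of 13 cases, near the 25.7% of all genes, and rose in 1. Their summed intensity was 3585 to 6200 in infarct and 9268 to 11489 in sham. Myod1 and Myog, members that the heart lacks, did not pass (-0.03 and 0.00). Of 8 cartilage and bone markers 2 rose and 1 fell. The part that shifts in these cell types play in the other results was not tested.

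Stress genes had no single direction, and for several of the lists that follow the shares are near those of all genes, 34.9% higher and 25.7% lower. Heat shock and folding genes fell in 10 of 18 cases and rose in 1. Dnajb5, Bag3 and Hspb8, chaperone genes of muscle, fell by 2.59, 1.94 and 1.88, and the inducible Hspa1a did not pass (-0.07). Antioxidant and metallothionein genes rose in 13 of 36 cases, with 17 falling, so that the share that rose is near that of all genes. Hmox1, which degrades heme, read 5629.9, 9914 and 5684 on the infarct arrays, against 811, 808 and 709.6 on the sham upper arrays, and rose by 3.07 ± 0.20, and Prdx4 of the secretory pathway rose by 2.27 ± 0.17. Sod2, the superoxide dismutase of mitochondria, fell by 2.16 ± 0.18, and Mgst3 by 2.75 ± 0.20. Apoptosis and p53 genes rose in 11 of 27 cases, near the share of all genes, and 4 fell, with Gadd45b (2.01) and Apaf1 (1.71) among the rises and Perp (-2.30) the largest fall. Coagulation and fibrinolysis genes rose in 14 of 21 cases, led by the inhibitors Serpinb2 (3.27 ± 0.48) and Tfpi2 (2.95 ± 0.28) and the urokinase receptor Plaur (2.88 ± 0.25). Vasoactive genes rose in 8 of 19 cases, with 5 falling, again near the shares of all genes. Ptgs2, the inducible cyclooxygenase, rose by 2.66 ± 0.27 and Ptgis, which makes prostacyclin, by 2.53 ± 0.24, while Ptgds, which makes prostaglandin D2, fell by 2.95 ± 0.30. Cytosolic ribosomal protein genes rose in 4 of 27 cases, with 7 falling, but under quantile normalization they rose in 20 and fell in 3, so no direction is given for them. Proteasome genes fell in 15 of 30 cases and rose in 4, with a median of -0.31, and none changed by 2-fold. Without array 670 only 9 fell, a share nearer to the 25.7% of all genes.

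The infarct effect at 1 week was then set against that at 48 h, each relative to the sham upper arrays of its own time. The change was larger (more positive) at 1 week for 985 genes (14.8%) and smaller for 772 (11.6%). Matrix genes led the first group. Col11a1 averaged 47.1 ± 8.9 in infarct and 84.9 ± 26.1 in sham at 48 h, and 2489 ± 1197 in infarct and 41.9 ± 29.2 in sham at 1 week (SD, n = 3 each). The effect differed between the times by 5.30 ± 0.58 (adjusted p = 1.2e-08). Sfrp2 (4.74 ± 0.55), Mfap4 (4.45 ± 0.58), Fndc1, a fibronectin domain protein (4.39 ± 0.41), and Thbs2, a thrombospondin of fibroblasts (4.35 ± 0.48), followed. Thbs2 averaged 114 ± 28.1 in infarct and 324 ± 52.1 in sham at 48 h, where it fell by 1.21, and 3573 ± 1317 in infarct and 349.7 ± 30.6 in sham at 1 week. Of the genes with a difference, 66 rose at 1 week and fell at 48 h, among them Itm2a, Tagln, Sfrp1 and Mfap2, and 35 did the reverse, among them Xirp1 (-0.83 at 1 week without array 670), Sema6b, Mt1, Nos3 and Thbd.

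Neutrophil and early inflammatory genes led the second group. S100a8 averaged 6474 ± 407 in infarct and 162 ± 33.4 in sham at 48 h, and 808 ± 372 in infarct and 219.5 ± 132 in sham at 1 week, a difference of -3.27 ± 0.65 (adjusted p = 2.4e-04). Chil3, a lectin of macrophages and neutrophils (-3.41 ± 0.59), Cxcl2, which attracts neutrophils (-2.90 ± 0.63), and Il1r2, a decoy receptor (-2.80 ± 0.36), were likewise less raised at 1 week. Pdk4 was the metabolic gene among the 5, with 6191 ± 2230.4 in infarct and 5789 ± 1409 in sham at 48 h and 1564 ± 849 in infarct and 11634 ± 2374 in sham at 1 week. By list, the effect was larger at 1 week for 6 of 7 fibrillar collagens, 14 of 22 myofibroblast genes and 33 of 59 cell cycle genes, and for 15 of 27 macrophage markers with 1 smaller. It was smaller for 7 of 15 neutrophil markers with 1 larger, 11 of 32 endothelial markers with 1 larger, 21 of 29 fatty acid oxidation genes and 11 of 26 sarcomere genes. Without array 670 the counts over all genes were 703 larger and 545 smaller.

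Against 8 weeks, when a scar has formed, the effect at 1 week was larger for 1350 genes (20.2%) and smaller for 1105 (16.6%). Tnc averaged 3289 ± 708 in infarct and 33.7 ± 17.3 in sham at 1 week, and 125 ± 68.4 in infarct and 76.7 ± 27 in sham at 8 weeks, a difference in effect of 4.99 ± 0.50 (adjusted p = 2.4e-09). Arg1 (5.14 ± 0.86), Adam8 (4.85 ± 0.59), Sprr1a (4.32 ± 0.39) and Saa3 (4.12 ± 1.05) were the other leading genes of this kind. Ckm averaged 232 ± 189 in infarct and 3329.8 ± 221 in sham at 1 week, and 2162 ± 1083 in infarct and 3552 ± 353 in sham at 8 weeks. Ces1d (-3.91 ± 0.42), Mapt, the tau gene (-3.37 ± 0.42), Cox7a1 (-3.23 ± 0.52) and Smyd1, a methyltransferase of muscle (-3.15 ± 0.54), differed in the same direction. Without array 670 the differences of Ckm, Cox7a1, Smyd1 and Mapt were -2.31, -2.25, -2.33 and -2.69. By list, the effect was larger at 1 week for 25 of 27 macrophage markers, 43 of 59 cell cycle genes, 5 of 7 fibrillar collagens and 9 of 15 matricellular genes. It was smaller for 27 of 29 fatty acid oxidation genes, 26 of 28 complex I genes and 15 of 26 sarcomere genes. Sfrp2 averaged 3261 ± 2917 in infarct and 206 ± 21.9 in sham at 8 weeks. That infarct mean was near the one of 1 week, 3367 ± 873, but with a wide spread between the 8-week pieces. These pieces varied in muscle and matrix genes too. Myh6 ran from 12908 to 22832 in infarct and from 27077 to 28372 in sham. Acadm ran from 4784 to 13084 and from 10449 to 11653, and Col1a1 from 2508 to 11928 and from 1424 to 1542. The part of this variation in the differences was not tested.

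**Figure D4:**
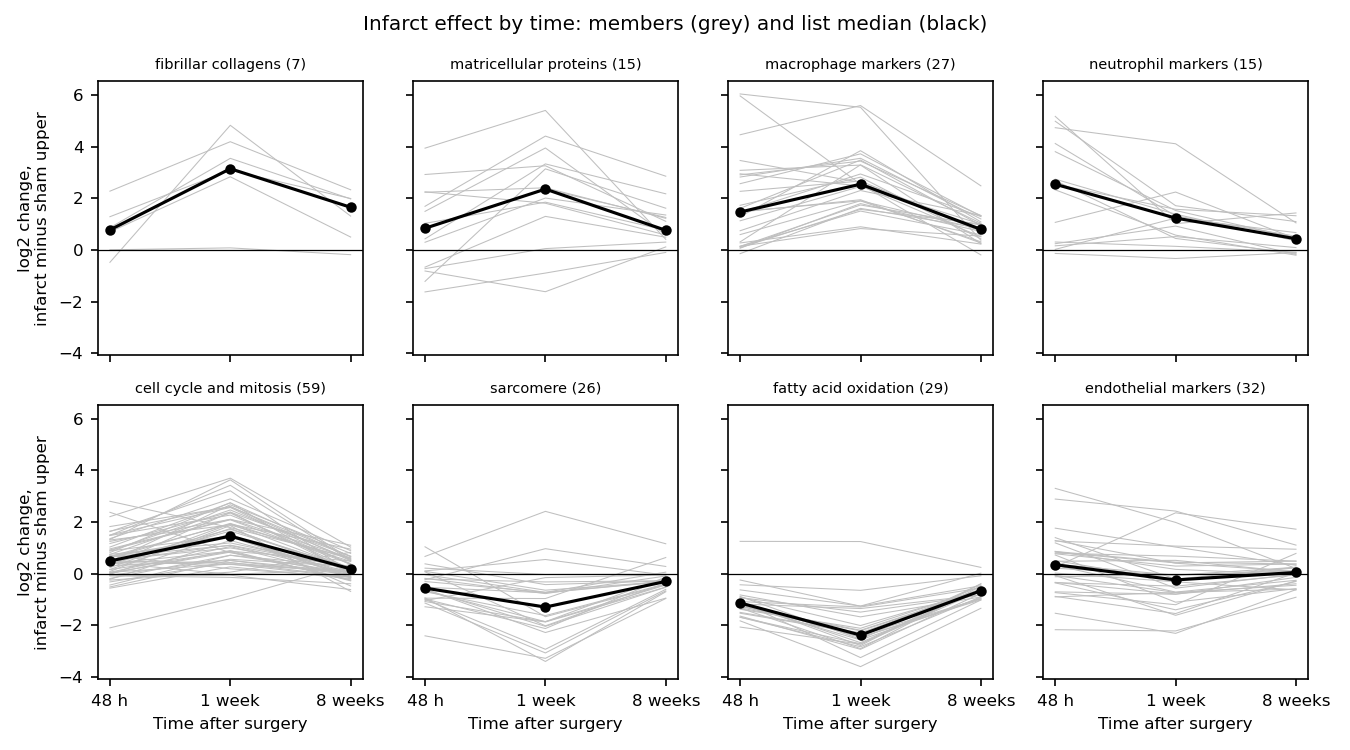
Log2 change of infarct minus sham upper at 48 h, 1 week and 8 weeks for 8 gene lists, with members in grey and the list median in black (3 arrays per group and time). The median of fibrillar collagens is 0.78, 3.14 and 1.65 at the 3 times, that of neutrophil markers 2.54, 1.23 and 0.43, and that of fatty acid oxidation genes -1.13, -2.38 and -0.66.

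Infarct and remote pieces with the same title number were compared directly, so that no sham value entered the difference. At 1 week 1521 genes were higher in infarct than in remote tissue (22.8%) and 1229 lower (18.4%). Arg1 read 2397, 3376 and 1733 in the infarct and 697, 74.6 and 370.4 in the remote pieces, a difference of 2.88 ± 0.56 (adjusted p = 5.9e-05). Mmp9 read 892, 1152 and 1351 in infarct and 72.2, 34.8 and 591 in remote tissue. Clec4d, a lectin receptor of myeloid cells (2.47 ± 0.38), Adam8 (1.99 ± 0.39) and Tm9sf3, a membrane protein of the secretory pathway (1.96 ± 0.18), were the other leading genes. Myl3 read 6281, 6959 and 324 in infarct and 22210.0, 21420.0 and 15557 in remote tissue, a difference of -2.94 ± 0.42, or -1.57 without infarct array 670. Sgca (-2.94 ± 0.24), Pygm (-2.74 ± 0.25), Cox7a1 (-2.69 ± 0.34) and Hrc (-2.68 ± 0.21) were also lower in infarct. Without that array they stood at -2.42, -2.13, -1.71 and -2.29 in that order.

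Most collagen genes did not pass this comparison. Remote tissue itself differed from sham upper tissue. Its median change against sham was 3.43 for fibrillar collagens, 1.69 for other collagens and 1.52 for macrophage markers. In infarct these medians were 3.14, 1.63 and 2.54. For sarcomere, complex I and fatty acid oxidation genes the remote medians were -0.15, -0.81 and -0.99. Col1a1 read 13833, 15394 and 15131 in infarct and 17665, 19962 and 18720.0 in remote tissue, Col3a1 read 11918, 11865 and 12051 in infarct and 12492, 15086 and 14089 in remote tissue, and Postn read 12303, 10799 and 12636 in infarct and 11316, 12962 and 13152 in remote tissue, with differences of -0.34 ± 0.34, -0.21 ± 0.30 and -0.07 ± 0.26, none of which passed. Of 7 fibrillar collagens 2 were higher in infarct than in remote tissue, and of 11 other collagens 2. Macrophage markers were higher in 19 of 27 cases, cell cycle genes in 38 of 59 and myofibroblast genes in 12 of 22. Lower in infarct were 20 of 26 sarcomere genes, 24 of 28 complex I genes and 27 of 29 fatty acid oxidation genes. Remote piece 670 was the remote array most like the infarct, with a correlation of 0.910 to 0.955 with the 3 infarct arrays across genes, against 0.839 to 0.918 for the other remote pieces. With the sham upper arrays it correlated at 0.876 to 0.887, against 0.913 to 0.932 for the other remote pieces. Without infarct array 670, 1118 genes were higher and 949 lower in infarct than in remote tissue.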

How the data were processed

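Each of 59 pieces of left ventricle from mice had its RNA read on 1 Affymetrix array, and the deposited table holds 1 intensity per probe set and array on a linear scale. The software is not given in the sources used here. From the values, the authors had scaled each array to a nearly equal trimmed mean, 499.8 to 499.9. Probe sets were named from the platform annotation: of 12488, 66 were controls, 10833 had 1 gene, 396 several and 1193 none. Each gene was read from its probe set with the highest mean, and 2073 of 8251 genes had several.

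Values became log2(intensity + 45.6), with 0.25 times the median of 182.4 as the offset. A gene was tested if 3 or more of the 59 arrays, of any group, reached 108.2, which is percentile 40 of the table. A gene dim in sham tissue could thus be tested through infarct arrays alone, so the counts that rose depend in part on this filter. limma 3.58.1 in R 4.3.3 fitted 23 groups of region and time over all 59 arrays, with the title number as a random block (correlation 0.148), 36 residual degrees of freedom and a median SE of 0.178. P-values were adjusted by Benjamini-Hochberg over 6670 genes. Same-numbered infarct and remote arrays of 1 week deviated together, at correlations of 0.219, 0.262 and 0.418. Pairs of 1 week with different numbers stood at -0.3 to 0.132. At earlier times same-numbered pairs stood near 0: -0.067 to 0.004 at 1 h, -0.014 to 0.033 at 4 h, and -0.015 and 0.023 at 24 h. They stood at 0.061 to 0.266 at 48 h and at -0.098 to 0.341 at 8 weeks. Whether a shared number marks 1 mouse was not tested. An exact permutation test of 3 against 3 arrays cannot go below 0.1, so none was used. The number of arrays limits the precision.

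The comparison and the gene lists were chosen with earlier results of these data known. Named genes are the 16 largest rises and 14 largest falls, up to 4 of each list, a panel of repair and muscle genes, and the 5 largest differences each way from 48 h, from 8 weeks and from remote tissue. Other named members, such as those that moved against their list, were chosen after their values were seen. Sequences come from RefSeq, and Python 3.11.15 with matplotlib 3.10.9 drew the figures. Alternatives were the offset, the filter, quantile normalization, array weights, every probe set, no block, other control arrays, a fit of the 6 arrays alone and leaving out each array.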

Additional observations from a re-analysis of the deposited data

Results flagged for a closer look

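In 30 comparisons of named genes, infarct tissue at 1 week differed in its change from another time, or in its level from remote tissue. The test was limma's test of the difference itself, and Arg1, Adam8 and Cox7a1 appear more than once. They are given as log2 differences. No group held more than 3 arrays, and no array was tested as an outlier.

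Relative to 48 h, the change at 1 week was more positive for Col11a1 (5.30), Sfrp2 (4.74), Mfap4 (4.45), Fndc1 (4.39) and Thbs2 (4.35), all genes of the extracellular matrix or its signals. It was more negative for Chil3 (-3.41), S100a8 (-3.27), Pdk4 (-3.04), Cxcl2 (-2.90) and Il1r2 (-2.80). Of these, the infarct effect on Pdk4 was -2.98 at 1 week and 0.06 at 48 h, so it fell at the later time.

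Relative to 8 weeks, the change at 1 week was more positive for Arg1 (5.14), Tnc (4.99), Adam8 (4.85), Sprr1a (4.32) and Saa3 (4.12). It was more negative for Ces1d (-3.91), Mapt (-3.37), Cox7a1 (-3.23), Smyd1 (-3.15) and Ckm (-3.14). Mapt, the tau gene, averaged 172 ± 131 in infarct and 1985 ± 292 in sham at 1 week, and 1679.7 ± 448 in infarct and 1798 ± 286 in sham at 8 weeks (SD, n = 3 each).

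Relative to remote tissue, infarct tissue was higher for Arg1 (2.88), Mmp9 (2.67), Clec4d (2.47), Adam8 (1.99) and Tm9sf3 (1.96), and lower for Myl3 (-2.94), Sgca (-2.94), Pygm (-2.74), Cox7a1 (-2.69) and Hrc (-2.68). Without infarct array 670 the value for Myl3 was -1.57 and that for Cox7a1 -1.71. All 30 differences passed without that array as well.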

How the results depend on the processing

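The counts of genes higher and lower in infarct than in sham tissue stayed within 1.5 times under every alternative run. With an offset of 1 times the median, 702 genes were at least 2-fold higher, against 1080. Leaving out each of the 6 arrays in turn gave 2125 to 2238 higher and 1592 to 1633 lower genes, 703 to 931 larger and 545 to 762 smaller changes than at 48 h, 1123 to 1303 and 985 to 1082 than at 8 weeks, and 1118 to 1516 higher and 949 to 1225 lower than in remote tissue. Without the replicate block there were 2331 higher and 1714 lower genes against sham, and 1368 higher and 1116 lower against remote tissue. With only the 6 arrays in the fit there were 2396 higher and 1745 lower, and 2225 and 1635 without array 670, an alternative chosen after seeing the data.

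Against the sham lower array alone, 4 of 255 named genes changed sign: Actb (-1.53), Psmd4 (0.01), Pvalb (-0.18) and Rpl32 (0.08). For Psmd4 and Rpl32 almost no difference remained, and the cause was not tested. Position and the single array cannot be told apart there. Quantile normalization took 4 of these 255 genes below the threshold and turned none of them, while 10 other genes called lower, Dcn among them, were called higher. Dim genes are limited by the offset, and title numbers may not mark separate mice.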
